A study of Mus musculus with 6 samples.

Results

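The genes described here belong to the bone morphogenetic protein (BMP) pathway: 10 genes, comprising the ligands Bmp2, Bmp4 and Bmp6, the secreted antagonists Grem1, Fst and Fstl1, and the response genes Id1, Id2, Smad6 and Smad7. They were taken by symbol from the 18193 genes that a mouse Affymetrix 3′ expression array measured with a probe set of 1 gene symbol. All 10 had at least 1 such probe set, 15 in all, and each gene is given by whichever of its probe sets was brightest on average across the 6 arrays. These members were selected with the difference between the lines already known, so their values and differences are a description and carry no test. The study compared 2 mouse lines of malignant mesothelioma, a tumour of the serous lining of chest and abdomen, both raised by asbestos exposure. AB1 was made in a female BALB/c mouse and was at passage 40, and AC29 in a female CBA mouse and was at passage 60; the labels give 6 to 8 weeks as the age for both. The labels name no treatment, and both lines grew in the same medium with serum to 80% confluency. Each line was sampled from 3 flasks with 1 array per flask, so the spread is that between flasks of 1 line, and line, strain and passage cannot be told apart.

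BMPs are secreted dimers that bind pairs of serine/threonine kinase receptors on the cell surface. The active receptors phosphorylate SMAD1, SMAD5 and SMAD9, which join SMAD4 and enter the nucleus, where the Id genes and the inhibitory Smads, Smad6 and Smad7, are among the best known targets. Antagonists such as gremlin, follistatin, noggin and chordin bind ligands outside the cell and keep them from the receptors. The Id genes and Smad7 also respond to transforming growth factor beta, so none of them reads BMP input alone.

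All values are log2 intensities as deposited. Array medians lay between 5.76 and 5.81, and Pearson's r across genes, which are not independent replicates, was at least 0.995 within a line and at most 0.938 between lines. The second principal component, with 2.86% of the variance, set AC29 replicate 14 apart. Leaving out any 1 array moved no member's difference by more than 0.165. The background was read from 86 probe sets for olfactory, vomeronasal and taste receptors: their 95th percentile, 6.07, is called the floor and their 99th, 7.23, the upper background level. A fold is given as a lower bound where no array of the dimmer line exceeded the floor. Of 10 mesothelial marker genes, 8 passed the call rule given below toward AC29 and none toward AB1, against 5.12% and 5.82% of all genes. Msln, which encodes mesothelin, read 9.67 in AB1 and 10.41 in AC29 and was not called, nor was Calb2 (6.43 and 6.58). Wt1, Upk3b, Upk1b, Lrrn4 and Krt8 were not above the floor in AB1. Krt18 was the brightest of the list in both lines (12.38 in AB1 and 13.55 in AC29), and Pdpn read 9.18 and 10.34. The summed linear level of this list was 6545 to 7559 in AB1 and 39299 to 43634 in AC29. That of 5 smooth muscle markers was 11844 to 12293 in AB1 and 1087 to 1187 in AC29, with Myh11 under the floor in both lines. Acta2 carried that sum in AB1 (13.22, against 6.53 in AC29). Tagln was also called toward AB1 (11.19 in AB1 and 9.38 in AC29) and was the brightest of the list in AC29. Cnn1 of the same list was called toward AC29 (6.19 in AB1 and 7.80 in AC29), and Des differed by -0.14. For 5 fibroblast markers the sum was 3746 to 4213 in AB1 and 8530 to 11775 in AC29, carried by Col1a1, while Pdgfrb was called toward AB1 (9.11 and 4.96) and Pdgfra differed by 0.15. For 6 macrophage markers it was 732 to 782 and 348 to 371, with Ptprc, Adgre1 and Itgam under the floor. Cd14 carried this difference and alone of that list was called, toward AB1 (9.02 in AB1 and 7.26 in AC29). Cd68 differed by -0.65 and Csf1r by 0.10. The 5 endothelial and 4 lymphocyte markers differed by at most 0.18 (log2). The part of these marker differences in the BMP pathway differences was not tested.

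RefSeq's GRCm38.p6 table held the start region of 6 of the 10 members, 250 bases before to 50 bases after the transcription start. The 3 motifs tied to SMAD binding that were searched, on both strands, were GGCGCC, a GC-rich SMAD site, GTCTAGAC, the palindromic SMAD box, and the longer BMP response element that joins a GC-rich site to a SMAD box. Among all 32851 start regions in the table they occurred in 11.9%, 0.213% and 0.244%. These shares were not matched for GC content, which was 63.3% to 70.7% in the 6 members and 52.7% in the median start region. The 3 members below are shown because they differed between the lines and held a match, printed in capitals. In Smad6 (chr9:64022010-64022309, minus strand) GTCTAGAC began at base -4 from the start, in Grem1 (chr2:113758599-113758898, minus strand) GGCGCC began at base -78, and in Id2 (chr12:25096043-25096342, minus strand) GGCGCC began at base -231. The start regions of Bmp4, Bmp6 and Fstl1 held none of the 3. No binding was measured here, so a match is only a string of letters.
Smad6: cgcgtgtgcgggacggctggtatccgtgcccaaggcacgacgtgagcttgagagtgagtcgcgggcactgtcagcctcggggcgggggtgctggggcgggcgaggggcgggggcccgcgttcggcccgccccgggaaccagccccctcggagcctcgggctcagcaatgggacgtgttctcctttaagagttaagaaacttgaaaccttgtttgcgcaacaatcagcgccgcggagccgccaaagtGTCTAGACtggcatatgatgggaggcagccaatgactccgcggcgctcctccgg
Grem1: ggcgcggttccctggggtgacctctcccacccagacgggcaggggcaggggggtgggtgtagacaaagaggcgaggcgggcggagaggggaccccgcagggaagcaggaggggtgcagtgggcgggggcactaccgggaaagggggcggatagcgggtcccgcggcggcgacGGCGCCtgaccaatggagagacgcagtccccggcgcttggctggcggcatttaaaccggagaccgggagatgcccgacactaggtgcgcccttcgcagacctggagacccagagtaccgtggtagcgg
Id2: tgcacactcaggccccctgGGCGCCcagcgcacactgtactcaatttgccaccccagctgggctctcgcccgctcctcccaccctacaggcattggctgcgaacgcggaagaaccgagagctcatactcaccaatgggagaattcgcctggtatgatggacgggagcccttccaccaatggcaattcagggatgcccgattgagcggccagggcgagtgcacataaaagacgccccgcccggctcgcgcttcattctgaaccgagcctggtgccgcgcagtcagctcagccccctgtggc

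The lines differed in BMP ligand transcripts, although Bmp4 was above the floor in both. Bmp2 and Bmp6 were higher in AB1 and Bmp4 was higher in AC29. Bmp2, a ligand known for bone induction, read 10.44, 10.58 and 10.53 in AB1 replicates 4, 5 and 6, and 3.80, 3.47 and 3.81 in AC29 replicates 13, 14 and 15. Every AB1 array was far above the floor and every AC29 array under it, which is at least 21.8-fold. On the log2 scale the difference of means, AC29 minus AB1, was -6.83 ± 0.11 (standard error from limma), a size that rests on AC29 values under the floor. Bmp4, a close relative of Bmp2 that binds the same receptors, went the other way: 7.21, 7.58 and 7.19 in AB1 and 9.80, 9.63 and 9.70 in AC29. The arrays did not overlap, and the difference was 2.38 ± 0.12, or 5.22-fold, with AB1 around the upper background level. Bmp6, a ligand known for its control of hepcidin in iron metabolism, read 6.90, 7.17 and 6.73 in AB1 and 4.72, 4.68 and 4.68 in AC29. Its AB1 arrays lay between the floor and the upper background level and its AC29 arrays under the floor, a lower bound of 1.81-fold. Against the upper background level Bmp6 exceeded it in neither line and has no fold.

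**Figure D1:**
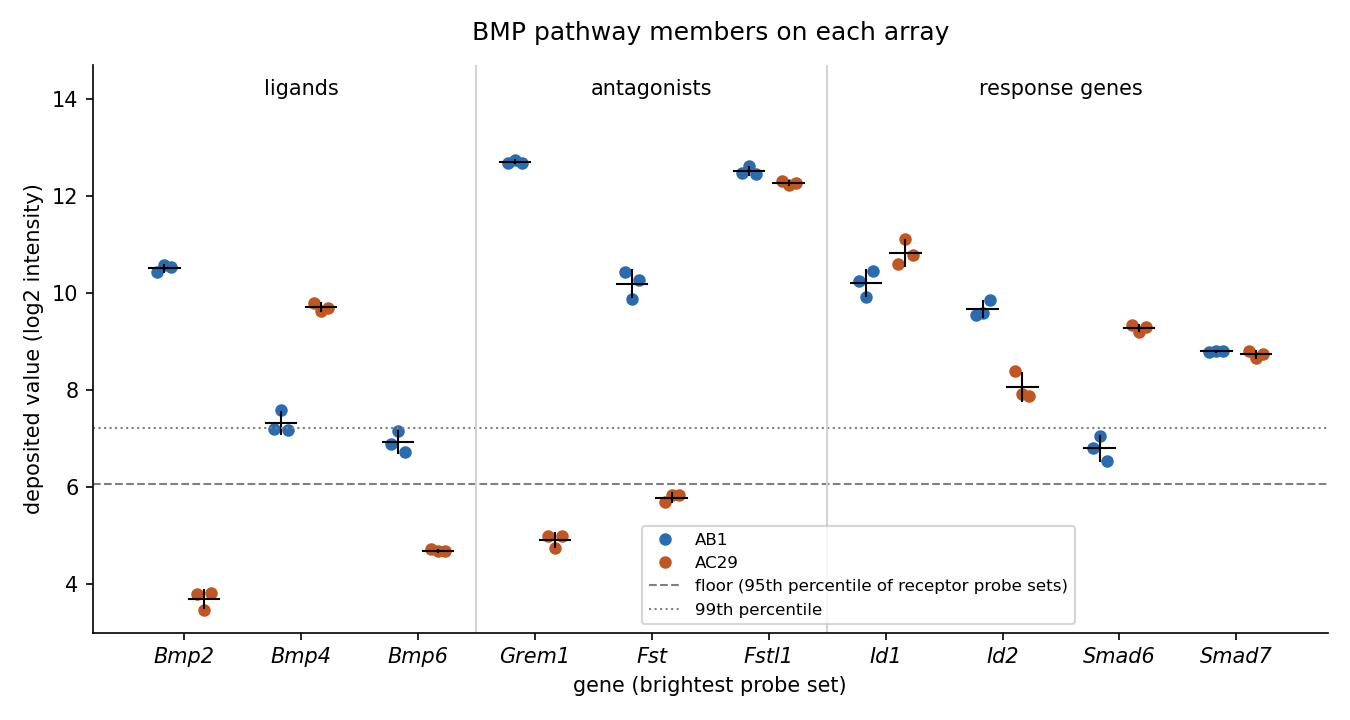
Deposited log2 intensity (vertical axis) of the 10 genes on each of the 3 AB1 (blue) and 3 AC29 (orange) arrays; black bars give the mean and SD, the dashed line the floor of 6.07 and the dotted line the upper background level of 7.23. Bmp2, Grem1 and Fst are bright in AB1 and under the floor in AC29, Bmp4 and Smad6 are higher in AC29, and the arrays of the lines overlap for Smad7.

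The antagonists Grem1 and Fst were at high intensity in AB1 and not above the floor in AC29, while Fstl1 was bright in both. Grem1 encodes gremlin 1, a cystine-knot protein that binds BMP2 and BMP4. It read 12.70, 12.75 and 12.70 in AB1 and 5.00, 4.74 and 5.00 in AC29, at least 99.9-fold. The difference of means was -7.80 ± 0.10, again set by AC29 values under the floor, and the AB1 arrays had an SD of 0.03. Fst encodes follistatin, which binds activins tightly and some BMPs. Its brightest probe set read 10.43, 9.88 and 10.28 in AB1 and 5.69, 5.84 and 5.83 in AC29, at least 17.5-fold. The other Fst probe set read 10.04, 10.04 and 10.12 against 3.80, 3.88 and 3.77, at least 15.9-fold. The 2 probe sets differ in the log2 difference (-4.41 ± 0.14 and -6.25 ± 0.08), but the values that set them apart are those of AC29, under the floor. Fstl1, a follistatin-like secreted glycoprotein known to dampen BMP4 signalling in the developing lung, read 12.48, 12.63 and 12.46 in AB1 and 12.32, 12.23 and 12.27 in AC29. The arrays did not overlap, yet the difference was -0.25 ± 0.09, and that of its other probe set -0.19 ± 0.09.

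The response genes did not share a direction. Smad6, an inhibitory Smad that acts chiefly on the BMP branch, read 6.80, 7.06 and 6.54 in AB1 and 9.35, 9.21 and 9.30 in AC29. The difference was 2.49 ± 0.13, or 5.61-fold; all 3 AB1 arrays stayed below the upper background level, and against it the fold is at least 4.16. Id1, an inhibitor of basic helix-loop-helix factors and the most used readout of BMP signalling, read 10.25, 9.93 and 10.45 in AB1 and 10.60, 11.12 and 10.79 in AC29. The highest AB1 array and the lowest AC29 array nearly met, and the SD was 0.27 in AB1 and 0.26 in AC29 beside a difference of 0.63 ± 0.16. Id2, of the same family, went toward AB1, with 9.56, 9.59 and 9.86 in AB1 and 8.39, 7.93 and 7.87 in AC29. That is -1.60 ± 0.15, or 3.04-fold.

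The other Id2 probe set above the floor gave -1.25 ± 0.18, although the 2 probe sets ordered the AC29 arrays differently, since replicate 13 was the highest at 8.39 in one and the lowest at 7.59 in the other. The remaining Id2 probe set was under the floor on all arrays, and on the mean of all its probe sets Id2 differed by -0.97 and was not called. Smad7, the inhibitory Smad shared by the BMP and transforming growth factor beta branches, read 8.79, 8.81 and 8.81 in AB1 and 8.82, 8.67 and 8.74 in AC29. Its arrays overlapped, with a difference of -0.06 ± 0.08, and its other probe set gave 0.02 ± 0.15.

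**Figure D2:**
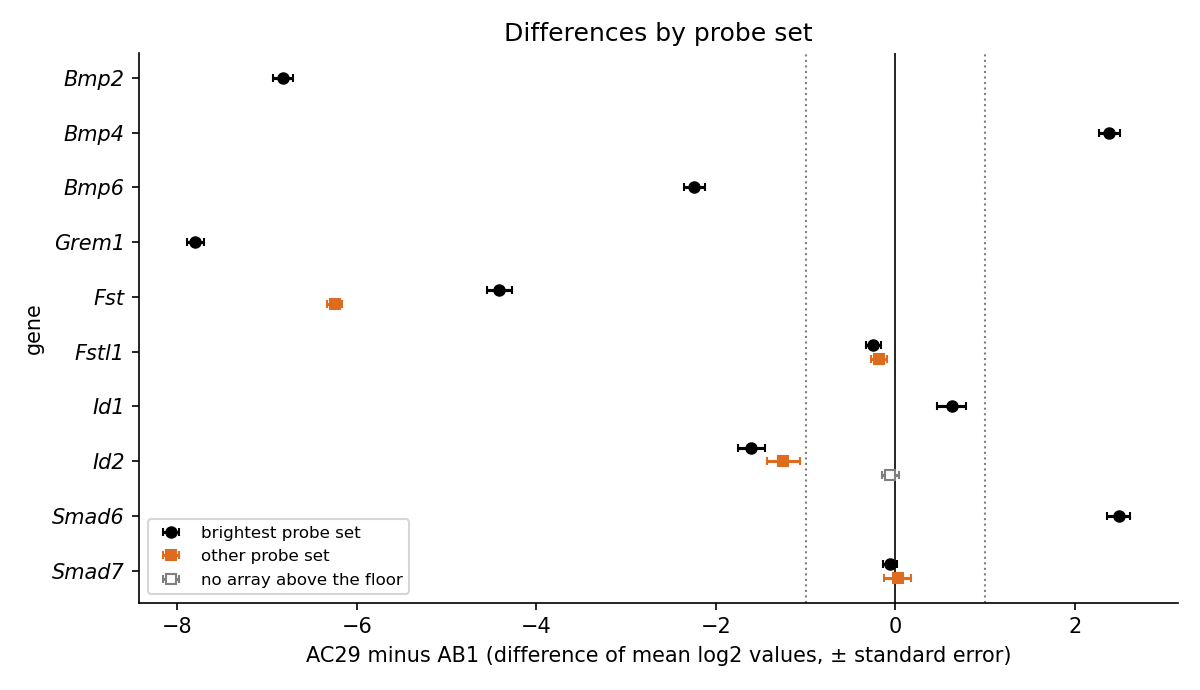
Difference AC29 minus AB1 (horizontal axis, log2, with the standard error) for all 15 probe sets of the 10 genes; black circles are the brightest probe sets, orange squares the others and the open square a probe set with no array above the floor. Dotted lines mark a 2-fold difference; Fst and Id2 lie toward AB1 by each of their probe sets above the floor, and those of Fstl1 and Smad7 stay within 0.25 of zero.

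The call rule required at least a 2-fold difference together with a limma p, adjusted over all 18193 genes, under 0.05. By that rule 5 of the 10 members were called higher in AB1 and 2 higher in AC29, and 3 were not called (Fstl1, Id1 and Smad7); over all genes 10.9% were called, 5.82% toward AB1 and 5.12% toward AC29. The 2 lines' arrays stayed apart for 9 members, against 50.1% of all genes. The median difference of the members was -0.93, against -0.0047 over all genes. Since the members were chosen on this contrast, nothing is read from these shares. By role, 2 of 3 ligands and 2 of 3 antagonists were called toward AB1, 1 ligand toward AC29, and 1 of the 4 response genes in each direction.

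For the 4 members with the largest differences, the genes with the nearest pattern were found by Euclidean distance between mean-centred log2 values over the 6 arrays, which the difference between the lines dominates. For Grem1, Bmp2 and Fst the AC29 values, and those of most of their neighbours, were under the floor, so that both the choice of members and the distances depend on background level there. For Grem1 they were Prkar2b, a regulatory subunit of protein kinase A, at a distance of 0.49, and the Wnt modulator Dkk2 at 0.98. For Bmp2 they were the smooth muscle actin Acta2 at 0.35 and again Dkk2 at 0.36. For Fst they were the galectin Lgals7 at 0.38 and the homeobox gene Hoxa11 at 0.47. Toward AC29, those nearest to Smad6 were the membrane protein gene Tmem176a at 0.07 and the complement protease gene C1ra at 0.15. In AB1 the mean of Tmem176a (6.06) was under the floor. Those of Smad6 (6.80) and C1ra (7.01) were below the upper background level, so these distances too depend on values near background.

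The rest of the pathway was covered by 76 listed genes, of which 70 were measured. Of these, 5 were called higher in AC29 and 5 higher in AB1, or 14.3% in all against the 10.9% over all genes. The median difference of the list was 0.02, and the arrays did not overlap for 35 of 70 genes, beside 50.1% over all genes. The list was fixed with earlier results of these data known, so nothing is read from these shares. In 25 of the 70 no array of either line exceeded the floor, among them the antagonists Nog and Sost and the ligand Bmp5. The p-values below are adjusted over all 18193 genes in limma.

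Among the 13 other ligands measured, 1 was called, Inhba, which encodes the activin beta A chain, a ligand that follistatin binds. It read 9.51, 9.47 and 9.31 in AB1 and 7.56, 7.74 and 7.64 in AC29, 3.44-fold higher in AB1 (-1.78 ± 0.09, adjusted p = 4.50e-07). On the mean with its second probe set, which was under the floor on all arrays, the difference was -0.84 and was not called. The beta B chain Inhbb was not called by its brightest probe set, at 6.70 in AB1 and 7.34 in AC29. It was under the 2-fold minimum there (0.64 ± 0.12, limma adjusted p = 0.00194). Another Inhbb probe set read 4.63, 4.22 and 3.93 in AB1 and 9.32, 9.34 and 9.15 in AC29, at least 9.16-fold. The 2 Inhbb probe sets thus pointed the same way with very different sizes, and on their mean Inhbb was called toward AC29 (2.82). Gdf2, which encodes BMP9, was near background at 6.68 and 7.08. It was not called, being under the 2-fold minimum (0.40 ± 0.10, limma adjusted p = 0.0117).

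Enzymes that act on the ligands or their inhibitors differed in opposite directions. Furin, a convertase that cleaves BMP precursors, read 8.71, 9.06 and 8.71 in AB1 and 7.36, 6.54 and 7.41 in AC29. It was 3.30-fold higher in AB1 (-1.72 ± 0.22, adjusted p = 0.000187), with AC29 replicate 14 the lowest array. Bmp1, which despite its name is a metalloprotease that cleaves procollagens and chordin, read 8.21, 8.37 and 8.26 in AB1 and 9.36, 9.30 and 9.53 in AC29. That is 2.17-fold higher in AC29 (1.12 ± 0.10, adjusted p = 1.33e-05), with another probe set at 1.33. On the mean of its 3 probe sets, 1 of them under the floor, Bmp1 differed by 0.82 and was not called. The convertases Pcsk6 (6.32 and 6.43) and Pcsk5, under the floor, were not called.

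Of 15 other antagonists and modulators, Bmper was called toward AC29 and Fstl3 toward AB1. Bmper, a secreted protein that binds BMPs and can dampen or aid them, read 5.57, 5.85 and 5.64 in AB1, all under the floor, and 9.87, 9.56 and 9.75 in AC29. It was at least 12.6-fold higher in AC29 (4.04 ± 0.11, adjusted p = 8.69e-09), and at least 5.65-fold against the upper background level. Fstl3, a relative of follistatin that binds activins, read 10.17, 9.98 and 9.86 in AB1 and 8.00, 8.08 and 8.18 in AC29, 3.78-fold higher in AB1 (-1.92 ± 0.10, adjusted p = 6.06e-07). Twsg1, a chordin partner, was under the 2-fold minimum at 10.62 in AB1 and 9.89 in AC29 (adjusted p = 6.35e-05), with other probe sets above the floor at -0.77 and -0.84. Crim1, a membrane protein with chordin-like repeats, read 10.32 and 10.21 (-0.11 ± 0.09) and was not called. Its other probe set, also above the floor, differed by 0.40 ± 0.16 in the opposite direction, and the mean of both by 0.15.

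**Figure D3:**
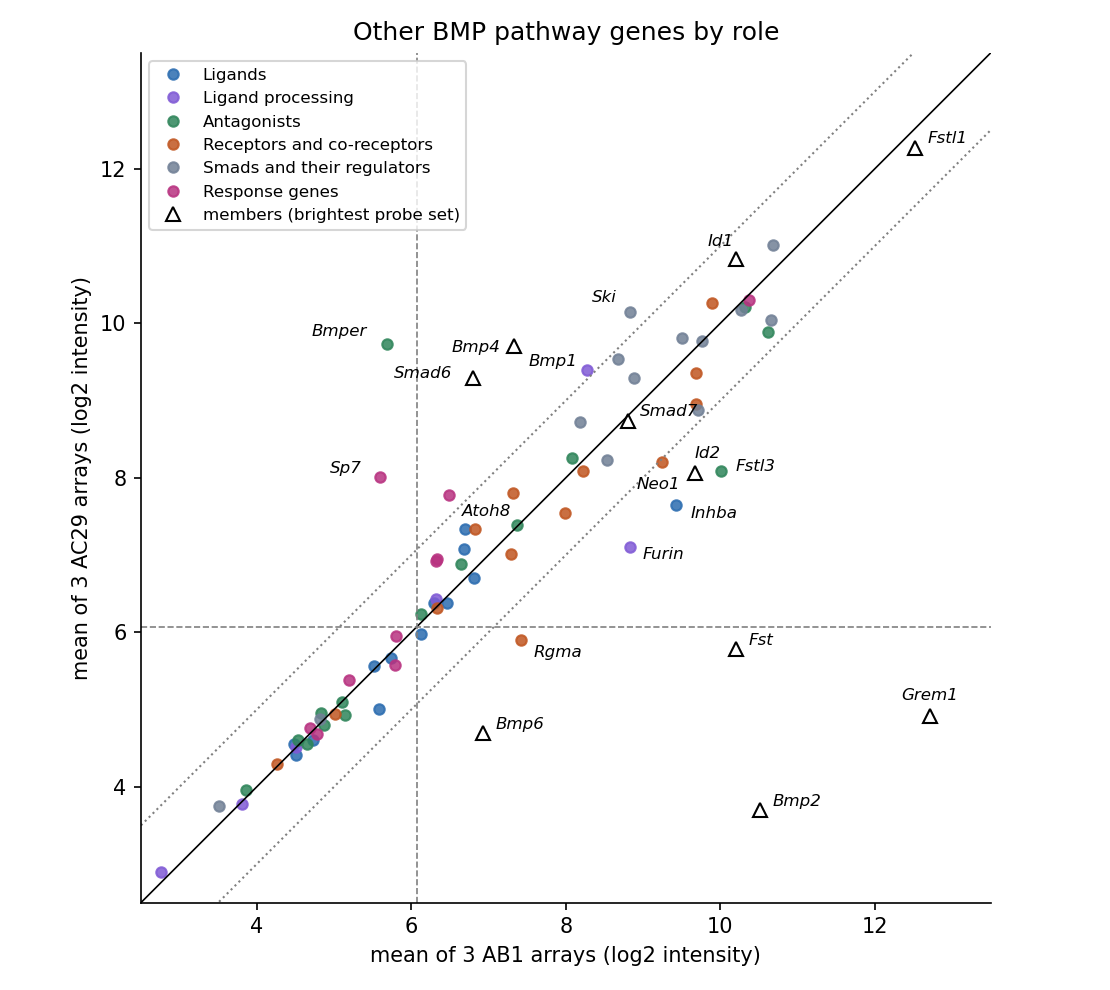
Mean log2 intensity of 3 AB1 arrays (horizontal axis) and 3 AC29 arrays (vertical axis) for the 70 other pathway genes, coloured by role, with the 10 members as open triangles; the solid line is equality, dotted lines mark 2-fold and dashed lines the floor. Names are given for the 10 called list genes and for the members; Bmper and Sp7 lie above the diagonal and Inhba, Furin, Fstl3 and Rgma below it, while most other list genes stay between the dotted lines.

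Among receptors the calls fell on the co-receptors. None of the 8 receptor genes proper passed the rule in limma, with 4 at an unadjusted p under 0.05. Of the 8, 6 were above the floor, and the widest difference was 0.73 (log2). That was Bmpr2, at 9.68 in AB1 and 8.96 in AC29 (-0.73 ± 0.15, limma adjusted p = 0.00357), with its other probe set above the floor at -0.56. Acvr2a went toward AC29, at 6.82 and 7.33 (0.51 ± 0.09, limma adjusted p = 0.00117), with its other probe set at 0.64. Both were under the 2-fold minimum. The type I receptor Bmpr1a read 9.90 in AB1 and 10.27 in AC29 (0.37 ± 0.12, limma adjusted p = 0.0340, under the 2-fold minimum). Its other probe sets above the floor on any array differed by 0.33 to 0.68, and 1 under the floor by -0.37. Acvr1, another type I receptor, read 9.69 and 9.36 (limma adjusted p = 0.0790). Rgma, a membrane-anchored BMP co-receptor, read 7.29, 7.41 and 7.55 in AB1 and 6.05, 5.79 and 5.84, under the floor, in AC29. It was at least 2.54-fold higher in AB1 (-1.52 ± 0.10, adjusted p = 3.17e-06), and at least 1.14-fold against the upper background level. Neo1 encodes neogenin, a receptor for the RGM proteins, and read 9.07, 9.35 and 9.30 in AB1 and 8.65, 7.76 and 8.19 in AC29 (-1.04 ± 0.20, adjusted p = 0.00224). The Neo1 call was lost without AC29 replicate 14 (-0.82), without AB1 replicate 5 (-0.99) and with array weights (-0.88). It was also lost on the mean of the Neo1 probe sets (-0.46) and by the second brightest probe set (-0.89). A further probe set differed by 0.60 in the opposite direction. Its identifier (ending in _x_at) marks possible cross-hybridisation. The called probe set (ending in _s_at) was left out together with it in an alternative probe set setting.

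Of 13 Smads and regulators, 1 was called. Ski, a repressor that binds SMAD complexes, read 8.78, 8.96 and 8.75 in AB1 and 10.08, 9.97 and 10.38 in AC29, 2.49-fold higher in AC29 (1.32 ± 0.12, adjusted p = 2.08e-05), with its other probe set at 0.97. Smad4, the shared partner, was not called at 10.68 and 11.01 (adjusted p = 0.0661), and its probe sets disagreed, with another at -0.84. Ppm1a, a phosphatase that acts on SMADs, was under the 2-fold minimum at 10.65 and 10.04, while other probe sets reached -1.76. Smad1 was also under that minimum at 9.71 in AB1 and 8.88 in AC29 (limma adjusted p = 0.000199), with other probe sets at -0.86 and -0.99. Smad5 went the other way at 8.19 and 8.72 (limma adjusted p = 0.00106), with other probe sets at 0.57 and 0.20. Smad9 was under the floor in both lines.

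Of 10 other response genes measured, 2 were called, both toward AC29. Atoh8, a basic helix-loop-helix factor known as a BMP target, read 6.58, 6.26 and 6.63 in AB1 and 7.64, 7.84 and 7.85 in AC29. It was 2.44-fold higher in AC29 (1.29 ± 0.12, limma adjusted p = 2.11e-05). Every AB1 array of Atoh8 lay between the floor and the upper background level, so that fold rests on AB1 values near background. Sp7, which encodes the osteoblast factor osterix, read 5.80, 5.44 and 5.54 in AB1, under the floor, and 8.10, 7.85 and 8.08 in AC29, at least 3.82-fold higher (2.41 ± 0.12, adjusted p = 2.97e-07), and at least 1.72-fold against the upper background level. Id3, of the same family as Id1 and Id2, overlapped between the lines at 10.37 and 10.30 and was not called (adjusted p = 0.670). Dlx3, a homeobox factor, was near background at 6.34 and 6.95. It was not called, being under the 2-fold minimum (0.61 ± 0.13, limma adjusted p = 0.00356). The other Dlx3 probe set, above the floor only in AC29, differed by 1.27 ± 0.16.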

How the data were processed

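Biotinylated cRNA from 5 ug of total RNA per flask was hybridised to Affymetrix arrays, as the labels' protocols state. The deposited log2 table covers 45101 probe sets on 6 arrays. GCOS, RMA and Partek 6.4 appear in the submitters' processing notes without a stated role, and the log2 scale was taken from the values' range and from RMA. RMA compresses the differences of dim and very bright probe sets. Scan dates and detection calls were not analysed here.

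The 64 control probe sets were dropped. The platform annotation gives 1 symbol for 34945 probe sets, and 34741 of these matched the RefSeq table by Entrez identifier. AC29 was set against AB1 on all other probe sets with limma 3.58.1 (R 4.3.3), using its moderated 2-sided test with no covariate, followed by Benjamini-Hochberg adjustment across 18193 genes. The members, lists, motifs and naming rule were chosen with earlier results of these data known. Named were all members, every called gene of the list, the 2 brightest not called in each role, and the 2 genes of nearest pattern for 4 members. Smad1, Smad5, Smad9, Bmpr2, Acvr2a, Nog, Sost and Bmp5 of the list were named outside that rule. Genes of the pathway list beyond the 70 measured were not analysed here. On simulated data of 18193 genes for this comparison, 50 genes each were changed by 1, 1.5, 2 and 4 (log2). Of these, 46%, 98%, 100% and 100% were called in the right direction, and 0 of 17993 unchanged genes were called. A change of 1 lies on the rule's 2-fold minimum. An unchanged gene would have to reach that minimum to be called, so the 0 says little about smaller differences. Precision is limited by the number of arrays (median standard error 0.0999). Alternatives were other normalization, probe set, variance, call and floor settings and leaving out each array.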

Additional observations from a re-analysis of the deposited data

How the results depend on the processing

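No paired analysis was possible because the replicate numbers of the lines (4 to 6 and 13 to 15) are not shared. Of the members, 2 were called toward AC29 and 5 toward AB1 under each alternative except averaging a gene's probe sets (2 and 4) and dropping the minimum difference (3 and 6), and no member's difference changed sign where it was called. With probe sets averaged Fst moved to -5.33, its second probe set being lower in AC29, and Id2 to -0.97, where the mean takes in a probe set under the floor on all arrays. Without a minimum difference 15 list genes were called toward AC29 and 13 toward AB1 (3475 and 3630 of all genes); when limma tested against a 2-fold difference, 2 and 3 were called (565 and 672 of all genes). With probe sets averaged 3 list genes were called toward AB1. Leaving out 1 array gave 5 list genes toward AC29 each time and 4 to 5 toward AB1. For the 22 list genes that the naming rule gave, 310 of 329 values under alternatives kept their side of the call rule. The call was lost in 12 and gained in 7, and none of the called reversed. With the floor at the 90th and then the 99th percentile of receptor values, the lower bounds were 131 and 44.9 for Grem1, 28.5 and 9.78 for Bmp2 and 2.37 at the 90th for Bmp6. For Fst the bound was 7.84 at the 99th, while at the 90th its AC29 arrays were above the floor and the fold of means was 21.3. The 99th percentile as floor for Smad6, Bmp4, Bmper, Rgma and Sp7 was chosen after seeing the data. Signal near the floor limits what can be said of Bmp6 and Rgma in both lines and of Smad6, Atoh8 and Sp7 in AB1.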
